A study of Mus musculus with 36 samples.

Results

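TME-CM EGCs were compared between 12 h and 6 h of stimulation, to follow the order in which their response genes appeared. TME-CM is medium conditioned overnight by the cells of digested MC38 tumors, which had grown from murine colorectal cancer cells injected into the colon wall, and EGCs are enteric glial cells, the glia of the nervous system of the gut. The comparison used 8 of the 36 libraries of the series, 4 of 6 h and 4 of 12 h, which were taken by their labels alone, and every gene with enough counts in them. All 36 libraries came from wild-type (WT) mouse EGCs that were grown from neurospheres of embryonic intestine and differentiated in serum before the stimulation. The other groups, also of 4 libraries each, were TME-CM EGCs at 24 h, and EGCs that were left unstimulated or were given H-CM, the medium conditioned by digested healthy colonic tissue, each at the same 3 times. The sources used here do not say whether the 4 libraries of a group came from separate cultures, so the p-values measure only the spread between these libraries, which may be technical.

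An inflammatory signal such as interleukin-1 switches on genes in waves. Primary response genes need no new protein: transcription factors that already wait in the cell, above all NF-κB, drive chemokines such as Cxcl1 and Cxcl2, adhesion molecules such as E-selectin, and Nfkbia, the inhibitor that ends the NF-κB signal. Secondary response genes wait for proteins made in that wave, such as the cofactor IκBζ or the cytokine IL-6 with its factor STAT3, and in many tissues they include lipocalin-2, the serum amyloid A proteins, the matrix proteases and their inhibitor TIMP1. Reactive glia of the brain and the gut are recognized by several of the same products, Lcn2 and Timp1 among them.

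Inflammatory genes of TME-CM EGCs differed in the time at which they stood high. The chemokine genes Cxcl1, Cxcl2 and Ccl2 already stood far above the unstimulated EGCs at 6 h, whereas Lcn2, Saa3, Mmp9, Mmp3, Timp1 and Ccl11 rose between 6 h and 12 h. Sele, the gene of E-selectin, went the other way and had almost vanished at 12 h. Of 11031 genes tested with edgeR's quasi-likelihood test, 43 (0.39%) changed with an adjusted p under 0.05: 13 rose (0.118%) and 30 fell (0.272%), and 17 of the 30 were transcripts of the mitochondrial genome. All 43 had no overlap between the 4 libraries of 6 h and the 4 of 12 h, beside 1112 (10.1%) of all genes tested. At an unadjusted p under 0.05 there were 1039 genes, 338 higher and 701 lower at 12 h, and the median log2 change of all genes was −0.03. The count of calls rested on single libraries: it was 107 without replicate 2 of 6 h and 27 without replicate 4 of 6 h, and it was 166, with 81 higher and 85 lower, without replicates 1 and 3 of 6 h, the libraries with the fewest genes detected. These libraries limit what can be called equal at both times, since the 95% interval of the log2 change lay within ±1 for only 977 genes (8.86%).

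The libraries differed in quality along the same axis as time. Mitochondrial transcripts took 10.7% to 25% of the counts in the TME-CM libraries of 6 h and 2.04% to 3.23% in those of 12 h (two-sided exact permutation test, p = 0.0286, the smallest that 4 against 4 libraries allow, and adjusted p = 0.147 over 12 such tests). Total counts per library lay between 1321201 and 5244763 in these 8 libraries, and 10120 to 13796 genes were detected at 6 h against 13386 to 16027 at 12 h. Pairs of 6 h libraries correlated at 0.621 to 0.822 across genes and pairs of 12 h libraries at 0.895 to 0.961. The part of library quality in the changes was not tested, but with the mitochondrial transcripts, Malat1 and the abundant table entry Yam1 left out of the fit, a choice made after seeing the data, 15 genes were called, 8 higher and 7 lower, all of them among the 43, from which that fit removes 17 mitochondrial transcripts and Malat1 by construction. Levels below are counts relative to the library total (CPM) on TMM-scaled library sizes, which are not scaled by transcript length because a 3′ library counts each transcript at its end. A level of 3 counts, taken as the floor, corresponded to 0.664 to 2.87 CPM in the libraries of 6 h, and such limits cover counting error only.

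**Figure D1:**
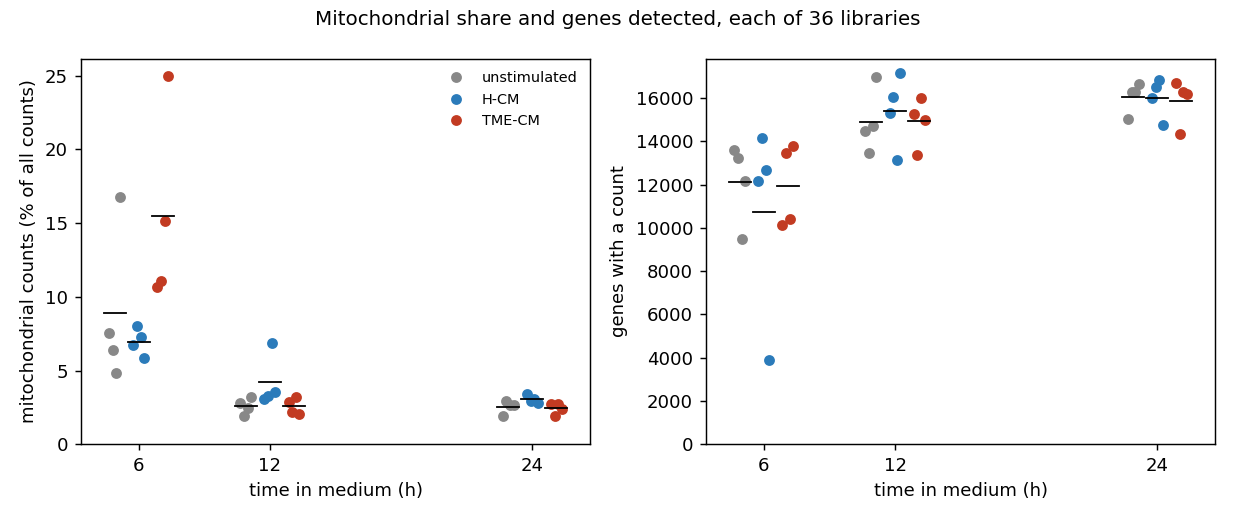
Share of counts on mitochondrial transcripts (percent, one panel) and number of genes detected (the other panel) in each of the 36 libraries, by medium and hours of stimulation; points are libraries. The 4 TME-CM libraries of 6 h lie between 10.7% and 25% mitochondrial counts and those of 12 h between 2.04% and 3.23%.

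The sequence before the start of transcription is shown for 3 early and 3 late genes, as the stretch on which the transcription factors of such waves are known to bind. Of the 39 genes named by rule, 23 had a promoter entry in the RefSeq table used (GRCm38.p6, 250 bases before to 50 bases after the start, printed 5′ to 3′ on the gene's strand). Capitals mark letters that match a motif on either strand. Sele (chr1:164047984-164048283, + strand) held a GAS motif (TTCNNNGAA), found in 8.3% of all 32851 promoters of this length, and an AP-1 motif (TGANTCA), found in 7.81%. Cxcl1 (chr5:90890995-90891294, +) and Cxcl2 (chr5:90903649-90903948, +), neighbors on one chromosome, each held 2 kappa B consensus matches that overlap in all but 1 base, a motif of 4.51% of the promoters.
Sele: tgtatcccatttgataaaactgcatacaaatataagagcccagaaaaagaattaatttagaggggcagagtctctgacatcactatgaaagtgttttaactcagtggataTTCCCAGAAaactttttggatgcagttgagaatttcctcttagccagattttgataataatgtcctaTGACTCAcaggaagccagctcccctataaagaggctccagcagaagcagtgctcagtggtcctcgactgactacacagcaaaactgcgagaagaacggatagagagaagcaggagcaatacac
Cxcl1: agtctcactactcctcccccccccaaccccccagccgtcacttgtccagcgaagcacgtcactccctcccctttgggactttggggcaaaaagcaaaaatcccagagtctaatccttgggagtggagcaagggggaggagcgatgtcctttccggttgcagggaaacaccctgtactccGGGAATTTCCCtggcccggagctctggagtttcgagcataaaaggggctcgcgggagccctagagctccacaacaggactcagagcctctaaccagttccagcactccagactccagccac
Cxcl2: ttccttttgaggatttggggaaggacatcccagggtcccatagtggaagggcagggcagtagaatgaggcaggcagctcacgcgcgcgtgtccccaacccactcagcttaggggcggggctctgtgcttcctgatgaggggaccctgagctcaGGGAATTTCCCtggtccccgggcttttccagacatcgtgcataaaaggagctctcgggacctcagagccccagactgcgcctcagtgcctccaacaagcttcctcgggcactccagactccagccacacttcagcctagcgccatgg

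The capital run of Cxcl1 and that of Cxcl2 were made of the same letters, from base −71 to base −61 before the start of Cxcl1 and from −97 to −87 before that of Cxcl2. Of the late genes, Lcn2 (chr2:32387690-32387989, − strand) matched none of the motifs searched, Saa3 (chr7:46715627-46715926, −) held an interferon-stimulated response element (ISRE, in 3.44% of promoters) and Mmp3 (chr9:7445572-7445871, +) held an AP-1 motif. The serum response element (1.63% of promoters), the CRE (TGACGTCA, 1.79%) and the E box of the clock (CACGTG, 7.15%) were searched as well and matched none of the 6. A match describes letters only, and the lack of one says nothing of a factor's binding.
Lcn2: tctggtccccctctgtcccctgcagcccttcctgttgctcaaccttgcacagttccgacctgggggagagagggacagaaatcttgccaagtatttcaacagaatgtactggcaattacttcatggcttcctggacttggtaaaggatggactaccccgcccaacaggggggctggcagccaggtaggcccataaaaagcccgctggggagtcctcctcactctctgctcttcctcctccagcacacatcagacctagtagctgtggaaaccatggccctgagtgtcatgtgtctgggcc
Saa3: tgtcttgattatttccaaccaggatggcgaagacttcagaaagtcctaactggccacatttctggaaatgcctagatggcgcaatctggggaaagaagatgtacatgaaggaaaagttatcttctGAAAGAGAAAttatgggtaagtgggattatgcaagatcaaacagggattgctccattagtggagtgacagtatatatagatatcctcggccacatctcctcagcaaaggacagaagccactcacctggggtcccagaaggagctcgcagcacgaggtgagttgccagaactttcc
Mmp3: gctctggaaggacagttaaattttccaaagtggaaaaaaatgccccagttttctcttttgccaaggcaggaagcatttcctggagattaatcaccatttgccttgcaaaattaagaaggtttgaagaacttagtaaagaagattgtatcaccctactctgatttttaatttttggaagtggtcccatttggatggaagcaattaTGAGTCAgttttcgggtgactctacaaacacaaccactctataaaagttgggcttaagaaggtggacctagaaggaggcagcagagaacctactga

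The early set was read against the unstimulated EGCs, as a description, with H-CM means of 6 h beside them. Those H-CM means include a nearly empty library, replicate 4 of H-CM 6 h. Cxcl1, a chemokine that attracts neutrophils, stood at 418, 168, 554 and 582 CPM in the TME-CM libraries of 6 h, at 380, 230, 340 and 606 CPM in those of 12 h and at 14, 14.9, 21 and 5.97 CPM in the unstimulated libraries of 6 h. The TME-CM libraries of 6 h thus all lay above the unstimulated ones, by a mean of 30.8-fold, and overlapped those of 12 h. The H-CM mean of 6 h was 21.01 CPM. The log2 change of Cxcl1 from 6 h to 12 h was −0.19 (95% interval −0.95 to 0.57, edgeR adjusted p = 0.919). Ccl2, which attracts monocytes, behaved alike, with 1120, 987, 905 and 2230 CPM at 6 h and 1270, 1060, 1660 and 2750 CPM at 12 h. It was 11.8-fold above the unstimulated mean at 6 h, when the means were 1311 CPM with TME-CM, 317.5 CPM with H-CM and 111 CPM unstimulated. The log2 change of Ccl2 from 6 h to 12 h, 0.32, had an interval of −0.36 to 1.01 (edgeR adjusted p = 0.831). For both genes the interval left room for a change of up to about 1 on the log2 scale in 1 direction, so equality at both times was not shown.

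Cxcl2, the close relative of Cxcl1, had its highest levels at 6 h. It stood at 481, 158, 541 and 1060 CPM at 6 h, at 245, 88.4, 220 and 345 CPM at 12 h and at 83.1, 26.9, 47.2 and 91.8 CPM at 24 h. Each time point's mean was below the one before, with overlapping libraries between 6 h and 12 h, and the log2 change between them was −1.35 (interval −2.33 to −0.37, edgeR adjusted p = 0.313), which did not pass the test over all genes. Nfkbia, the NF-κB inhibitor, stood at 766, 493, 1230 and 815 CPM at 6 h and at 405, 349, 469 and 560 CPM at 12 h, a log2 change of −0.93 (edgeR adjusted p = 0.214) with overlapping libraries. Its 6 h means were 825.6 CPM with TME-CM, 257.9 CPM with H-CM and 161.7 CPM unstimulated. Ptgs2, the inducible cyclooxygenase of prostaglandin synthesis, stood at 338, 576, 475 and 1220 CPM with TME-CM at 6 h and then at 482, 296, 452 and 623 CPM (log2 change −0.53, edgeR adjusted p = 0.708). Its 6 h means were 653.3 CPM with TME-CM, 214.8 CPM with H-CM and 248.1 CPM unstimulated.

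Sele was the one chemokine or adhesion gene of the early set that fell past the threshold. Its product, E-selectin, tethers leukocytes and is best known from activated endothelium. It stood at 83.6, 21, 46.4 and 90.1 CPM at 6 h and at 2.04, 0, 1.83 and 2.57 CPM at 12 h, with 0 to 0.427 CPM in the unstimulated libraries of 6 h and 0 to 14.6 CPM in the H-CM libraries of 6 h. The groups did not overlap, and the mean fell 37.5-fold (log2 change −5.19 ± 0.88 SE, edgeR adjusted p = 0.0094). Without replicate 4 of 6 h, the library with its highest level, the adjusted p was 0.128. Of 4 endothelial markers, with a summed level of 0.7 to 34.5 CPM at 6 h and 24 to 38.3 CPM at 12 h, 2 were tested and 0 were called. Pecam1 had 3 counts in the 4 libraries of 6 h together and 77 in those of 12 h, a ratio of 19.5 with a counting interval of 6.41 to 96.4. Kdr, a receptor of vascular endothelial growth factor, stood at 0.467, 26.7, 0.822 and 31.7 CPM at 6 h and at 24.1, 11.6, 20.5 and 33.2 CPM at 12 h, and the groups overlapped (edgeR adjusted p = 0.921).

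**Figure D2:**
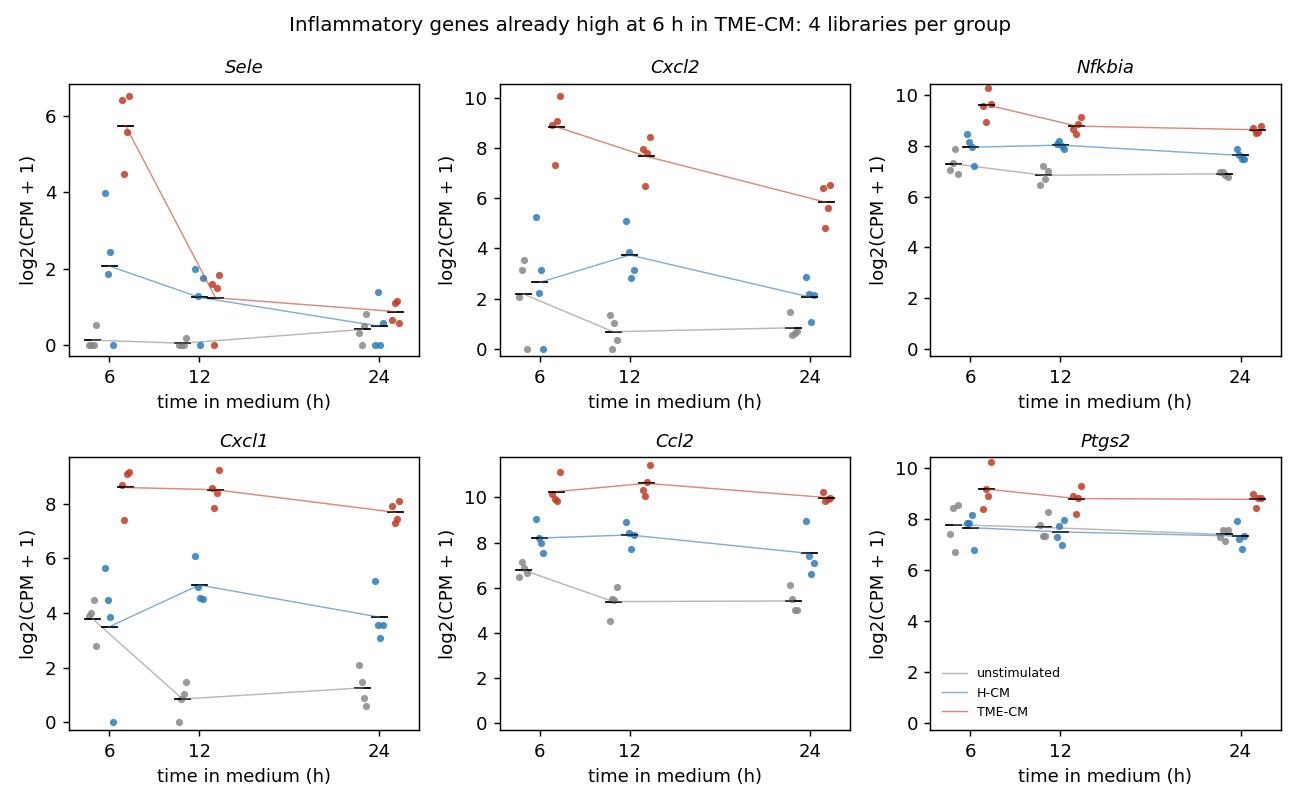
Levels of 6 genes that were high at 6 h in TME-CM EGCs, as log2(CPM + 1), by hours of stimulation; points are libraries (4 per group), bars are group means, grey is unstimulated, blue H-CM and red TME-CM. Sele falls from 21 to 90.1 CPM at 6 h to at most 2.57 CPM at 12 h in TME-CM EGCs, and Cxcl1, Cxcl2 and Ccl2 lie above the unstimulated EGCs at 6 h.

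Genes of the NF-κB pathway itself and its feedback were lower at 12 h in most cases, but none passed the test. Of 17 members tested, 14 had a negative log2 change, with a median of −0.80 beside −0.03 for all genes, and 0 were called by edgeR (4 lower and 2 higher at an unadjusted p under 0.05). Tnfaip2 went from 225, 164, 519 and 327 CPM to 130, 129, 126 and 102 CPM, with every library of 12 h below every library of 6 h (log2 change −1.38, edgeR adjusted p = 0.12). Vcam1, an adhesion molecule, went from 37.6, 42, 398 and 164 CPM to 24.7, 53.2, 43.4 and 63.2 CPM, and 1 library of 6 h held most of its level. Sod2, the mitochondrial superoxide dismutase and a classical NF-κB target, had the opposite sign, with 440, 141, 179 and 337 CPM at 6 h and 846, 702, 732 and 824 CPM at 12 h and no overlap (log2 change 1.46, edgeR adjusted p = 0.0632).

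Immediate early genes, the transcription factors and regulators that answer within minutes of a stimulus, showed no call among 17 tested (median log2 change −0.16, 2 lower at an unadjusted p under 0.05). Fos, a subunit of AP-1, stood at 37.6, 68.8, 98.2 and 33.6 CPM at 6 h and at 16.7, 3.6, 22.3 and 17.5 CPM at 12 h, without overlap (log2 change −2.02, edgeR adjusted p = 0.245). Fos was the 1 member without overlap below 6 h, and Ier2 the 1 member without overlap above it. Of all genes tested, 3.14% lay without overlap below 6 h and 6.94% above it. Among 9 CXC chemokines 0 were called, with a median of −0.19 (1 higher and 1 lower at an unadjusted p under 0.05). Cxcl10, which attracts T cells, stood at 95.7, 148, 461 and 728 CPM at 6 h and at 36.3, 163, 238 and 202 CPM at 12 h, so that the spread among the 6 h libraries was wider than the difference (log2 change −1.20, edgeR adjusted p = 0.541). Among 9 cytokines and growth factors there were 0 calls and a median of −0.08 (0 higher and 1 lower at an unadjusted p under 0.05). Il6 stood at 25.2, 27.7, 0.822 and 60.9 CPM at 6 h and at 38.2, 32.8, 37.7 and 56.3 CPM at 12 h, with a log2 change of 0.49 (edgeR adjusted p = 0.901). It was at 27.2 times the unstimulated mean at 6 h. That mean was 1.049 CPM, near the floor, since 3 counts were 0.6401 to 15.77 CPM in the unstimulated libraries of 6 h. The log2 change of Il6 turned to −0.15 without replicates 1 and 3 of TME-CM 6 h. The 8 genes of IL-1 receptors and prostaglandin synthesis had 0 calls (0 also at an unadjusted p under 0.05) and a median of −0.13.

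The genes that rose were led by Lcn2, which binds the iron carriers of bacteria, and Saa3, an acute-phase protein. Lcn2 (chr2:32384633-32388252, − strand) stood at 32.7, 30.6, 16.8 and 15.9 CPM at 6 h, at 549, 578, 464 and 662 CPM at 12 h and at 859, 1110, 975 and 1040 CPM at 24 h in TME-CM EGCs. The lowest library of 12 h lay far above the highest of 6 h, and the mean rose 23.5-fold (log2 change 4.52 ± 0.33 SE, edgeR adjusted p = 1.96e-06). At 6 h Lcn2 was only 1.74 times the unstimulated mean of 6 h, with overlapping libraries. At 12 h it was 218 times the unstimulated mean of 12 h. Saa3 (chr7:46711998-46715700, −), a serum amyloid A made outside the liver, stood at 533, 457, 535 and 247 CPM at 6 h and at 9550, 6970, 7860 and 7430 CPM at 12 h. It rose 17.9-fold (log2 change 4.12 ± 0.28 SE, edgeR adjusted p = 1.96e-06). At 6 h it was 1.1 times the unstimulated mean of 6 h, and at 12 h 237 times the unstimulated mean of 12 h. The unstimulated means of both genes were lower at 12 h than at 6 h, which adds to these ratios. Both calls held in all 19 alternatives tried.

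Matrix proteases and their inhibitors split. Mmp9, the gelatinase B gene (chr2:164940780-164955850, +), stood at 98.5, 58.3, 50.1 and 47.4 CPM at 6 h and at 603, 318, 522 and 533 CPM at 12 h. It rose 7.77-fold without overlap (log2 change 2.92 ± 0.32 SE, edgeR adjusted p = 0.000114). Mmp3, stromelysin-1 (chr9:7445822-7455975, +), stood at 82.2, 27.7, 67.4 and 62.6 CPM and then at 430, 200, 361 and 508 CPM. It rose 6.25-fold (log2 change 2.59 ± 0.36 SE, edgeR adjusted p = 0.0017), also without overlap. Timp1, the secreted inhibitor of these proteases (chrX:20870166-20874735, +), went from 204, 90.7, 164 and 97.4 CPM to 1250, 684, 810 and 1180 CPM. Its rise was 7.06-fold (log2 change 2.77 ± 0.32 SE, edgeR adjusted p = 0.000192). Timp3, the inhibitor that stays bound to the matrix, fell instead, from 724, 416, 691 and 562 CPM to 268, 277, 254 and 188 CPM (log2 change −1.31, edgeR adjusted p = 0.0329), with 1733 of its exon bases shared with Syn3 on the opposite strand. Of 12 members tested, with a median of −0.21, 2 rose and 1 fell, beside 0.118% and 0.272% of all genes tested. Higher without overlap were 4, which besides Mmp3 and Mmp9 were Mmp13 and Plau, beside 6.94% of all genes tested. Mmp10, another protease, had a lower mean at 12 h, 569.5 CPM against 1059 CPM at 6 h (log2 change −0.93, edgeR adjusted p = 0.519).

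**Figure D3:**
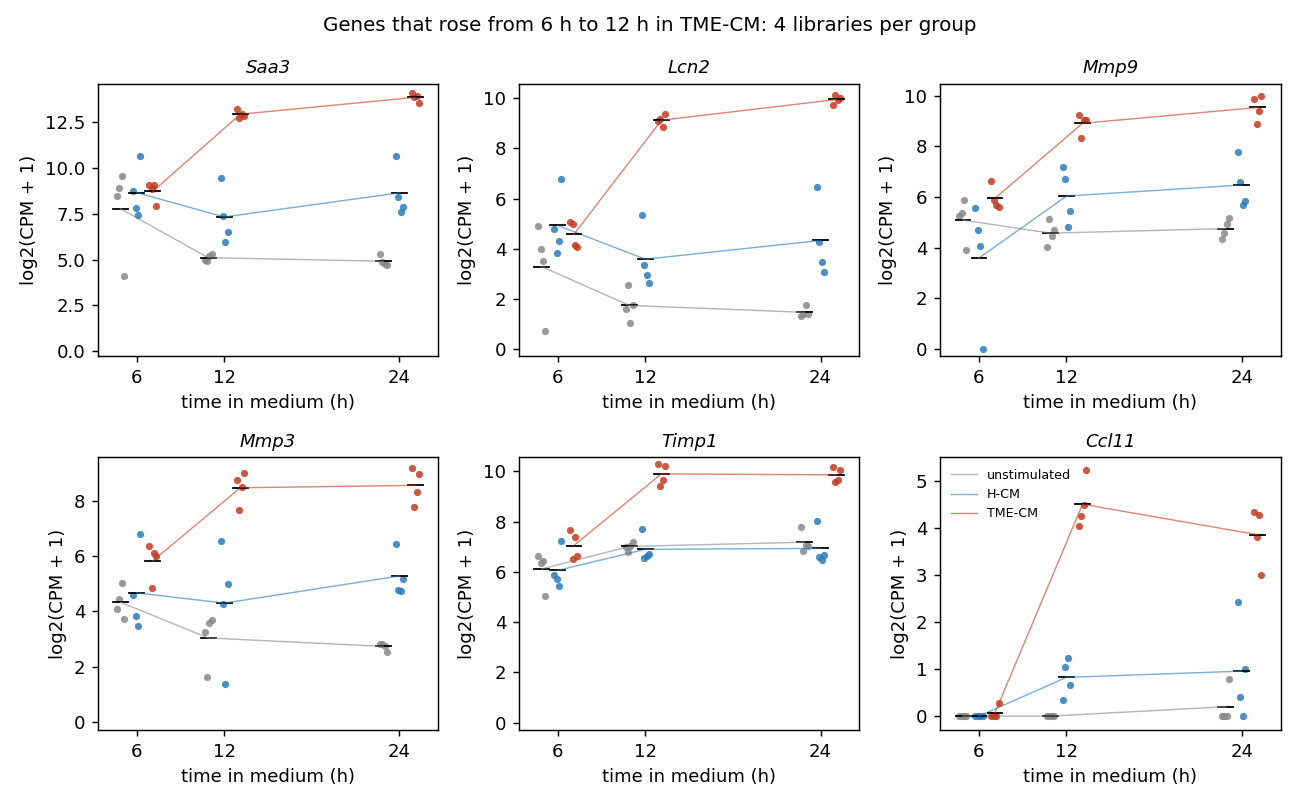
Levels of 6 genes that rose between 6 h and 12 h in TME-CM EGCs, as log2(CPM + 1), by hours of stimulation; points are libraries (4 per group), bars are group means, grey is unstimulated, blue H-CM and red TME-CM. Lcn2 and Saa3 overlap the unstimulated libraries at 6 h, and all 4 TME-CM libraries of 12 h lie above all those of 6 h for each of the 6 genes.

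Ccl11, the chemokine eotaxin, was almost unread at 6 h. It had 0, 0, 0 and 0.221 CPM at 6 h (1 count in all) and 15.5, 18, 21.5 and 36.8 CPM at 12 h (370 counts), at chr11:82057823-82062955 on the + strand. The ratio of the summed counts was 280 with a counting interval of 50 to 11106, and the fitted log2 change was 7.67 ± 1.39 SE (edgeR adjusted p = 0.0177). Leaving out any library of 12 h, or replicate 4 of 6 h, ended this call, with adjusted p up to 0.175. DESeq2 gave a log2 change of 7.59 for Ccl11 and no adjusted p. Of 9 CC and CX3C chemokines Ccl11 alone was called, beside 0.118% of all genes tested that rose. Without overlap above 6 h lay 6 of the 9 (Ccl11, Ccl7, Ccl8, Ccl3, Ccl5 and Cx3cl1), beside 6.94% of all genes tested. The median log2 change of the 9 was 1.21. Ccl7, like Ccl2 a ligand of the monocyte receptor CCR2, stood at 380, 244, 349 and 426 CPM at 6 h and at 576, 574, 717 and 1050 CPM at 12 h (log2 change 1.02, edgeR adjusted p = 0.159).

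The rest of the acute-phase list pointed upward from very low levels. All 10 members tested had a positive log2 change, but Saa3 was the only call (0.118% of all genes tested rose past the threshold). Without overlap were 6 of them (Saa1, Saa2, Saa3, Hp, Slpi and Chil1), beside 6.94% of all genes tested that were higher without overlap. The median was 4.16 from the fit, and 3.17 with Hp, Slpi and Chil1, which had at most 3 counts in each library of 6 h, set to the bound that 3 counts give. Chil1, a chitinase-like protein of reactive glia, had 0 counts in the 4 libraries of 6 h and 17.4, 6, 15.8 and 10 CPM at 12 h, at least 9.01-fold higher against 3 counts per library (edgeR adjusted p = 0.0863). Slpi, an inhibitor of leukocyte proteases, had 2 counts at 6 h and 373 at 12 h, with 21, 9.6, 14 and 45.5 CPM in the latter, a ratio of 141 with a counting interval of 38.9 to 1171 (edgeR adjusted p = 0.0696). Saa1 stood at 0, 3.82, 0 and 1.11 CPM and then at 47.2, 10, 21.9 and 31.6 CPM (edgeR adjusted p = 0.195). Complement C3 overlapped, with 0.467, 6.69, 38.6 and 6.2 CPM at 6 h and 65.3, 20.8, 64.7 and 54.7 CPM at 12 h (edgeR adjusted p = 0.532). Nos2, the inducible nitric oxide synthase, stood at 0, 0.955, 6.16 and 15.5 CPM at 6 h and at 44.3, 36, 56.6 and 115 CPM at 12 h, with no overlap and a log2 change of 3.38 that did not pass the test (edgeR adjusted p = 0.214).

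Genes of MHC class I antigen presentation had log2 changes of one sign, but only 1 of them passed the test. All 12 members tested had a positive log2 change, with a median of 1.08. The medians in H-CM and unstimulated EGCs were −0.60 (10 tested) and −0.55 (9 tested). B2m, the light chain of all class I molecules, was the 1 that rose in TME-CM EGCs, beside 0.118% of all genes tested. Higher without overlap were 3 members (B2m, H2-D1 and Tapbp), beside 6.94% of all genes tested. B2m stood at 950, 1210, 931 and 740 CPM at 6 h and at 1570, 2030, 2580 and 2530 CPM at 12 h (log2 change 1.14, edgeR adjusted p = 0.0484). The heavy chain H2-D1, at 64, 57.3, 37 and 44.9 CPM and then at 76.6, 120, 107 and 124 CPM, also had no overlap (edgeR adjusted p = 0.292), and neither did Tapbp, which loads peptide onto class I, at 38.3, 180, 193 and 155 CPM and then 334, 390, 430 and 437 CPM (edgeR adjusted p = 0.174). In contrast, 22 type I interferon-stimulated genes had a median of −0.01, with 11 positive and 11 negative changes and 0 calls (1 higher and 2 lower at an unadjusted p under 0.05), and 12 guanylate-binding and immunity-related GTPases had a median of 0.08 and 0 calls (0 also at an unadjusted p under 0.05). Rsad2, an antiviral interferon target, went from 49.7, 108, 187 and 61.1 CPM to 13.5, 24.4, 49.7 and 28.5 CPM, the 1 gene of the interferon list without overlap (log2 change −1.85, edgeR adjusted p = 0.186). Lower without overlap were 3.14% of all genes tested. Ifitm3, an interferon-induced membrane protein, rose from 1210, 600, 1200 and 652 CPM to 2100, 2530, 2410 and 2080 CPM (log2 change 1.28, edgeR adjusted p = 0.0484), with a log2 change of 1.29 in H-CM EGCs as well (edgeR adjusted p = 0.0431).

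**Figure D4:**
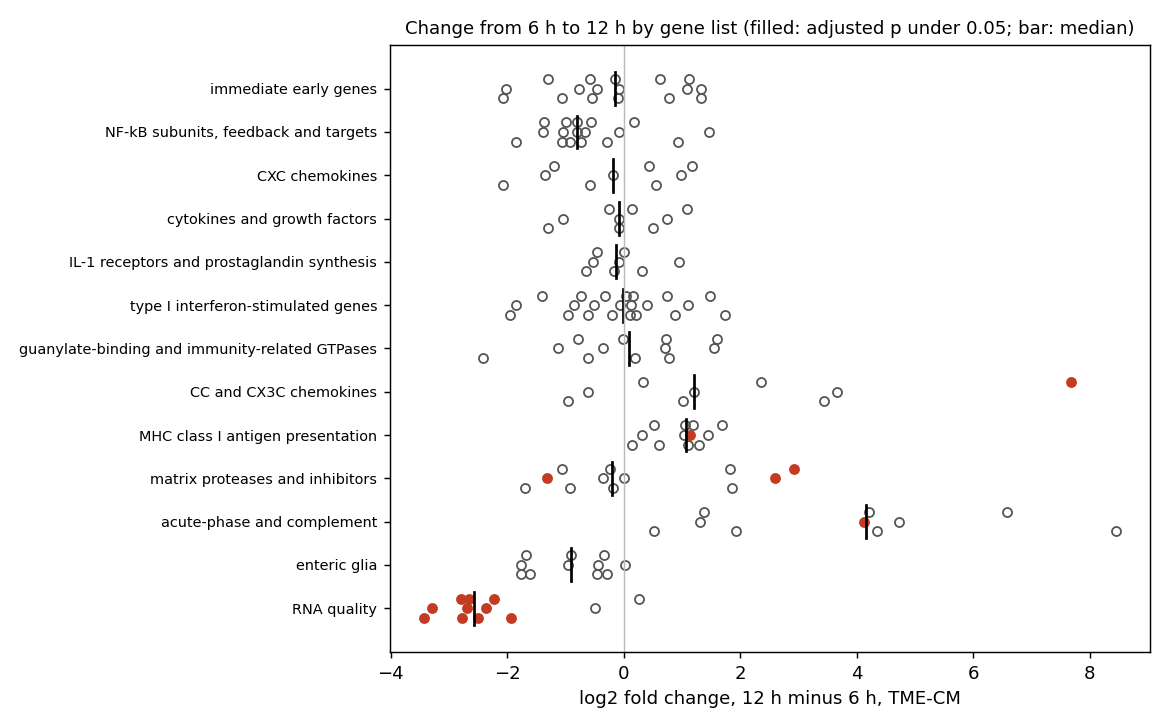
Log2 change from 6 h to 12 h in TME-CM EGCs of each tested member of 13 gene lists; each point is a gene, filled points have an edgeR adjusted p under 0.05, and the bar is the median of the list. The acute-phase and MHC class I lists lie wholly above 0, and 14 of the 17 NF-κB genes lie below 0.

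The pan-reactive markers, first described in astrocytes, did not move as a block. Of 11 tested, with a median of −0.13, Lcn2 and Timp1 rose, beside 0.118% of all genes tested. In contrast Vim, Osmr and Cd44 lay without overlap below 6 h, beside 3.14% of all genes tested that did so. Vim, an intermediate filament, stood at 3150, 3050, 2680 and 2190 CPM and then at 1520, 1730, 1950 and 1910 CPM (edgeR adjusted p = 0.228). Osmr, the oncostatin M receptor, stood at 199, 81.2, 154 and 137 CPM and then at 76.8, 46.8, 75.7 and 57.3 CPM (edgeR adjusted p = 0.195). Cd44, a receptor for hyaluronan, stood at 727, 544, 1120 and 850 CPM and then at 415, 442, 402 and 421 CPM (edgeR adjusted p = 0.14). These 3 did not pass the test over all genes.

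Other genes that rose encode secreted, matrix or membrane proteins. Pdpn, podoplanin, a membrane glycoprotein of reactive glia and stroma, went from 96.9, 109, 13.1 and 77.7 CPM to 466, 362, 345 and 411 CPM (log2 change 2.39, edgeR adjusted p = 0.0278). Manf, a secreted factor of the stressed endoplasmic reticulum, went from 51.6, 96.5, 42.7 and 58.9 CPM to 271, 212, 233 and 400 CPM (log2 change 2.13, edgeR adjusted p = 0.00414), and shares 326 exon bases with other genes. Neither pair of groups overlapped. Fstl1, a secreted glycoprotein, went from 763, 887, 503 and 563 CPM to 1790, 1570, 1680 and 2340 CPM (log2 change 1.40, edgeR adjusted p = 0.0107). Mgp, matrix Gla protein, went from 385, 188, 275 and 152 CPM to 748, 1110, 897 and 458 CPM (log2 change 1.65, edgeR adjusted p = 0.0454). Dcn, the proteoglycan decorin, went from 1000, 593, 895 and 905 CPM to 1700, 1780, 1770 and 2450 CPM (log2 change 1.14, edgeR adjusted p = 0.0419). Dcn also led the fibroblast and mesenchyme markers, whose summed level was 807.1 to 1167 CPM at 6 h and 1954 to 2656 CPM at 12 h, with Dcn and Lum without overlap and 1 of 5 called. Of all genes tested, 6.94% were higher without overlap and 0.118% rose past the threshold. Whether the rises of secreted and matrix genes go with more mesenchymal cells was not tested. More cells of a type and more RNA per cell cannot be told apart in bulk RNA. The call of Pdpn was lost in 6, that of Mgp in 7, that of Fstl1 in 3 and that of Ifitm3 in 10 of 19 alternatives, and that of Manf in 0.

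To place the change on the full course of the response, 285 genes were taken that were higher at 24 h in TME-CM EGCs than in both H-CM EGCs (349 genes, 2.75% of 12713 tested) and unstimulated EGCs (613 genes, 4.82%), and 246 that were lower than in both (337 genes, 2.65%, and 597 genes, 4.7%). These lists come from the 12 libraries of 24 h, which are not among the 8 compared. From 6 h to 12 h, 0.118% of all genes tested rose and 0.272% fell. Of 276 higher genes tested, 10 rose and 0 fell: Lcn2, Saa3, Mmp9, Mmp3, Timp1, Ccl11, Pdpn, Ifitm3, B2m and Dcn. At an unadjusted p under 0.05, 19.9% of them were higher and 6.88% lower at 12 h, beside 3.06% and 6.35% of all genes tested. Beside 6.94% and 3.14% of all genes tested, 22.1% of the 276 were higher and 1.45% lower without overlap. Their median log2 change was 0.32, beside −0.03 for all genes, and 62.7% were positive. The interval lay within ±1 for 33 of them (12%). The number that rose was 35 without replicates 1 and 3 of 6 h, and 5 without replicate 2 or replicate 4 of 12 h.

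By level, most genes that were higher at 24 h already stood well above 0 at 6 h. Of the 280 higher genes with a 24 h mean of at least 5 CPM, 186 (66.4%) had a 6 h mean of at least 50% of the 24 h mean, and in 91 (32.5%) the 6 h mean exceeded it. A gene with a small fold at 24 h can reach that mark from its unstimulated level alone. In 223 (79.6%) the 6 h mean of TME-CM EGCs exceeded those of both other media, a share that was not counted over all genes. Only 19 (6.79%) stood under 10% of the 24 h mean at 6 h and 0 did at 12 h, when 262 (93.6%) had reached at least 50%. At 6 h Cxcl2 was at 899% and Cxcl1 at 204% of their 24 h means, and at 12 h at 362% and 184%. Ccl2 was at 128% and then 165%, and Il6 at 218% and then 315%. At the other end Lcn2 was at 2.41% at 6 h and 56.6% at 12 h, and Saa3 at 2.91% and then 52.3%. Mmp9 went from 8.19% to 63.6%, Mmp3 from 14.9% to 92.8% and Timp1 from 14.8% to 104%. Sod2 went from 45.9% to 130%, B2m from 30.1% to 68.6% and C3 from 9.7% to 38.4%. As means, with no test, Cxcl2, Il6, Cxcl1 and Ccl2 thus had the highest 6 h shares of these genes, above Sod2 and B2m. Mmp3, Timp1, C3, Mmp9, Saa3 and Lcn2 stood below those. Families did not keep this order as a whole: the protease Mmp10 had means of 1059 CPM at 6 h and 227.7 CPM at 24 h. The chemokines Ccl5 and Cx3cl1 had means of 1.916 and 28.06 CPM at 6 h against 12.56 and 73.4 CPM at 24 h.

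**Figure D5:**
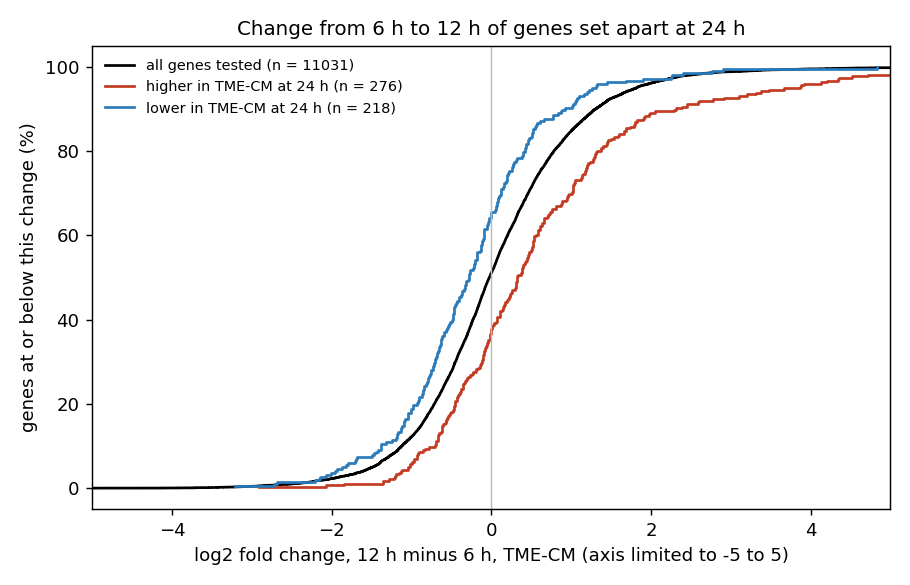
Cumulative share of genes (vertical axis) by log2 change from 6 h to 12 h in TME-CM EGCs (horizontal axis), for all 11031 genes tested, the 276 higher at 24 h and the 218 lower at 24 h. The curve of the higher genes lies to the right, with a median of 0.32, and that of the lower genes to the left, with a median of −0.28.

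Of the genes lower at 24 h, 218 were tested, and their median log2 change was −0.28. Among them 3 fell and 0 rose, beside 0.272% and 0.118% of all genes tested. Fbn2, the matrix protein fibrillin-2, went from 138, 235, 491 and 184 CPM to 76.4, 66.4, 87.8 and 52.4 CPM (log2 change −1.93, edgeR adjusted p = 0.0375), with 129 exon bases shared with Gm26507 on the opposite strand. S100a4, a calcium-binding protein of motile cells, went from 544, 348, 328 and 445 CPM to 156, 159, 159 and 164 CPM (log2 change −1.42, edgeR adjusted p = 0.0116), and shares 302 exon bases with Gm42674 on the same strand. Timp3, given above, was the other gene. The calls of Fbn2 and Timp3 were each lost in 9 of 19 alternatives and that of S100a4 in 5. At an unadjusted p under 0.05, 11% of the 218 genes were lower and 1.83% higher at 12 h, beside 6.35% and 3.06% of all genes tested. The count of 3 was 0 without replicate 4 of 6 h or without any 1 library of 12 h, and 6 without replicate 2 of 6 h. In H-CM and unstimulated EGCs the medians of the 216 genes tested in each were 0.35 and 0.39.

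The same interval was measured in the other media, whose changes each share no library with the TME-CM change. H-CM EGCs changed in 93 of 10650 genes (0.873%), 30 of them higher (0.282%) and 63 lower (0.592%), with 0 without replicate 3 of H-CM 6 h and 310 without replicate 3 of H-CM 12 h, and unstimulated EGCs changed in 10 of 10143 (0.0986%), 2 higher (0.0197%) and 8 lower (0.0789%). Differences between media were then tested as interactions. The change in TME-CM exceeded that in H-CM in 1 gene of 12249 (0.00816%), Lcn2, by 5.08 on the log2 scale (edgeR adjusted p = 0.00575), while 1045 genes had an unadjusted p under 0.05. Lcn2 stood at 26.3, 13.2, 18.9 and 110 CPM in H-CM libraries of 6 h and at 40.1, 9.17, 6.84 and 5.27 CPM in those of 12 h, all below the TME-CM libraries of 12 h. The value of 110 CPM is 3 counts in replicate 4 of H-CM 6 h, a nearly empty library with 3908 genes detected. Without that library H-CM EGCs changed in 110 genes, and Lcn2 was still the 1 gene whose change differed, by 4.86 (edgeR adjusted p = 0.0108). This call was lost without replicate 3 of TME-CM 6 h and in one model of 24 libraries, and without replicate 2 of TME-CM 6 h the test called 255 genes.

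Against the change in unstimulated EGCs, 7 of 12126 genes differed (0.0577%), 6 of them with a higher change in TME-CM (0.0495%) and 1 with a lower one (0.00825%). Lcn2 differed by 6.90 (edgeR adjusted p = 0.000582), Saa3 by 7.67 (edgeR adjusted p = 0.00582), Mmp9 by 3.44 (edgeR adjusted p = 0.00358), Mmp3 by 3.67 (edgeR adjusted p = 0.00734) and Ccl7 by 2.95 (edgeR adjusted p = 0.0126). In the unstimulated libraries Saa3 stood at 361, 483, 751 and 16.4 CPM at 6 h and at 31, 29.1, 35.5 and 38.6 CPM at 12 h, so its difference also holds a lower level at 12 h there. The same is seen in Lcn2, at 29.2, 14.9, 10.5 and 0.64 CPM and then at 2.04, 4.92, 1.06 and 2.33 CPM in unstimulated libraries. Ctsh, the lysosomal protease cathepsin H, had 0 counts in the 4 TME-CM libraries of 6 h and 5.31, 14, 6.9 and 6.94 CPM at 12 h, against 6.48, 9.4, 26.3 and 19.2 CPM and then 4.07, 9.01, 5.82 and 4.79 CPM in unstimulated EGCs (interaction edgeR adjusted p = 0.0453, lost in 14 alternatives). Gm13889 was the 1 gene with a lower change in TME-CM, at 99.4, 73.5, 254 and 66.4 CPM and then 22.5, 29.2, 33.1 and 25.4 CPM (difference −3.00, edgeR adjusted p = 0.0383, lost in 13 alternatives), and shares 289 exon bases with Gm27027 on the same strand. The counts were 4 without replicate 2 of unstimulated 6 h or replicate 4 of TME-CM 12 h, and 18 and 14 without replicate 4 of unstimulated 6 h and replicate 2 of TME-CM 6 h. Both interactions share the TME-CM libraries.

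The 30 genes that fell were mostly mitochondrial and nuclear-retained RNAs. Of 23 mitochondrial transcripts tested, with a median log2 change of −2.69, 17 fell and 0 rose, beside 0.272% and 0.118% of all genes tested. mt-Co1, a subunit of cytochrome oxidase, stood at 6130, 6400, 10900 and 7690 CPM at 6 h and at 848, 811, 889 and 726 CPM at 12 h (log2 change −3.29, edgeR adjusted p = 1.96e-06). It also fell in H-CM EGCs (log2 change −2.08, edgeR adjusted p = 0.00505) and in unstimulated EGCs (log2 change −2.54, edgeR adjusted p = 0.0119). The long noncoding RNA Malat1, which stays in the nucleus, went from 12700, 7890, 13800 and 14100 CPM to 1050, 760, 2090 and 728 CPM (log2 change −3.42, edgeR adjusted p = 4.91e-05), with 539 exon bases shared with other genes. Kcnq1ot1, an imprinted nuclear RNA, went from 119, 148, 192 and 233 CPM to 15.5, 16.8, 26.2 and 12.6 CPM (log2 change −3.31, edgeR adjusted p = 0.000165) and fell in H-CM (−2.17, edgeR adjusted p = 0.0039) and unstimulated EGCs (−1.96, edgeR adjusted p = 0.0298) too. Kcnq1ot1 shares 1119 exon bases with Kcnq1 and 4 other genes on the opposite strand. Meg3, also imprinted and nuclear, went from 818, 803, 917 and 646 CPM to 184, 205, 345 and 150 CPM (log2 change −1.89, edgeR adjusted p = 0.0029), with 1499 exon bases shared with other genes. Lars2, the mitochondrial leucyl-tRNA synthetase, went from 181, 31.5, 338 and 236 CPM to 13.1, 12, 10.8 and 16.2 CPM (log2 change −3.96, edgeR adjusted p = 0.00153).

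The mean mitochondrial share was lower at 12 h in the other media as well. It went from 6.96% at 6 h to 4.20% at 12 h in H-CM EGCs (exact permutation p = 0.0857) and from 8.90% to 2.59% in unstimulated EGCs (exact permutation p = 0.0286), beside 15.5% and 2.57% in TME-CM EGCs, and none of these passed adjustment over the 12 tests. The other RNAs that fell were Hist1h2ao (log2 change −2.06, edgeR adjusted p = 0.00559), Snord13 (−2.79, edgeR adjusted p = 0.0484), Gm22710 (−3.09, edgeR adjusted p = 0.00975), Matn2 (−1.52, edgeR adjusted p = 0.0393) and Naa15 (−1.41, edgeR adjusted p = 0.0484). All 125 exon bases of Gm22710 are shared with 2900060B14Rik on the same strand, and 138 of Hist1h2ao and 70 of Matn2 are shared with genes on the opposite strand. Library quality and hours of stimulation cannot be told apart in these 8 libraries.

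Markers of the cells present checked the label. Of 12 enteric glial markers 11 were tested, and their summed level was 634.8 to 849.1 CPM at 6 h and 324.4 to 355.6 CPM at 12 h. In unstimulated EGCs the sum was 257.5 to 554.2 CPM at 6 h and 311.4 to 381 CPM at 12 h. Of the 11 changes in TME-CM EGCs 10 were negative. Their median was −0.91, beside −0.84 in H-CM and −0.45 in unstimulated EGCs (10 tested in each). In TME-CM EGCs 0 were called (4 lower at an unadjusted p under 0.05). Sox10, the glial master regulator, stood at 87.5, 105, 84.6 and 73.9 CPM and then at 72.7, 75.6, 59.4 and 56 CPM, with overlap, and Sox2, a factor of glia and progenitors, at 45.7, 93.6, 205 and 62.6 CPM and then 35.9, 26.4, 41.4 and 34.2 CPM, without (edgeR adjusted p = 0.211). Gfap was low, at 0 to 9.55 CPM at 6 h and 1.6 to 5.88 CPM at 12 h. Other cell types were present as well: smooth muscle markers summed to 2915 to 6851 CPM at 6 h and 3598 to 4088 CPM at 12 h, and neuron markers to 565.7 to 928 CPM and 436.5 to 574.7 CPM. Macrophage and other immune markers summed to 66.62 to 471.2 CPM at 6 h and 88.23 to 388 CPM at 12 h. Epithelial markers summed to at most 5.731 CPM in any of the 8 libraries, and none of the 5 was tested. No smooth muscle, neuron or immune marker was called (1, 2 and 0 lower and 0 higher at an unadjusted p under 0.05), and the part of cell composition in the changes was not tested.

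Ntsr1 and Sparcl1, glial genes named by the study, were not called. Ntsr1, a neurotensin receptor, stood at 0.7, 23.9, 1.64 and 3.32 CPM at 6 h and at 7.96, 7.2, 12.8 and 11.3 CPM at 12 h, and 1 library of 6 h set its spread (log2 change 0.42, edgeR adjusted p = 0.944, and −0.35 without replicates 1 and 3 of 6 h). Sparcl1, a secreted matrix protein, stood at 419, 493, 776 and 286 CPM and then at 365, 404, 459 and 261 CPM (log2 change −0.45, edgeR adjusted p = 0.716). Of the 8 higher genes with the largest 24 h fold over H-CM, Saa1, Saa2, Slpi, Chil1, Nos2 and Lcn2 lay without overlap above 6 h, though Lcn2 alone was called. Of all genes tested, 6.94% lay without overlap above 6 h and 0.118% rose past the threshold. Serpina3f, a serine protease inhibitor, varied too much to place, at 0, 12.4, 134 and 40.7 CPM and then 14.9, 30, 24.3 and 28 CPM, and its log2 change, negative in the 8 libraries, became 0.43 without replicate 3 of 6 h. The remaining one, Gm14275, was read too rarely to be tested.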

How the data were processed

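RNA of 36 libraries was read by QuantSeq 3′ mRNA sequencing. Per the study's methods and the submitters' processing notes, the authors used FastQC 0.11.7 and SAMtools 1.5, removed adapter sequence (fastq-mcf), placed the reads on mm10 (HISAT2), kept those with a single position and counted them by gene symbol (HT-seq Count), and they deposited these raw counts. The gene annotation, the strand setting and any use of molecular identifiers are not given in the sources used here, so genes that share exon bases cannot be told apart with certainty. Every column of the count table was used.

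The tests ran in edgeR 4.0.16 (R 4.3.3), using filterByExpr (minimum count 10), TMM factors, and the quasi-likelihood test with Benjamini-Hochberg adjustment over all genes tested, with a call at an adjusted p under 0.05. The main comparison was fitted to its 8 libraries, the other media likewise, interactions to 16 libraries and the 24 h lists to the 12 libraries of 24 h. Alternatives used limma 3.58.1 and DESeq2 1.42.0, other scaling and filters, larger models, a replicate block, thinning to the lowest total, a fold of at least 2 and each library left out. The calling was tested on simulated data.

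Genes were named by rule: the 10 largest rises and falls among calls without overlap and with at least 5 CPM, up to 5 interactions in each direction, 24 h response genes by the same rule plus the 8 with the largest 24 h fold, list members by their role, and genes the study names. Other called genes were named after their values were seen. One gene is not reported here. The members and gene lists were chosen with earlier results of these data known. Gene positions are from GENCODE M21 on GRCm38, the assembly also called mm10, and promoters from RefSeq. Total counts per library, from 1321201 to 5244763 in the 8 libraries, set the counting error.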

Additional observations from a re-analysis of the deposited data

Results flagged for a closer look

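Single libraries of 6 h stood far from the other 3 of their group in 5 of 84 groups of 4 examined with Dixon's criterion, which chance flags in about 1 of 20. Replicate 4 held the only Ccl11 reads, at 0.221 CPM, the only Gm14275 reads, at 2.21 CPM, and the highest Ccl2 level, at 2230 CPM. Replicate 2 held the highest Ntsr1 level, at 23.9 CPM, and the highest share of counts on Yam1, at 37.8%.

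Changes from 6 h to 12 h that differed between media, by an interaction test in edgeR with an adjusted p under 0.05, were flagged as well. The change of Lcn2 in TME-CM exceeded that in H-CM by 5.08 on the log2 scale. Against unstimulated EGCs the difference was 9.04 for Ctsh, 7.67 for Saa3, 6.90 for Lcn2, 3.67 for Mmp3, 3.44 for Mmp9 and −3.00 for Gm13889. The value of Ctsh comes from a group at 0 counts and depends on the prior count of the fit.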

How the results depend on the processing

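The calls of Lcn2, Saa3, Mmp9, Timp1, Manf, Malat1, Kcnq1ot1, mt-Co1 and mt-Tm held in every alternative run, and Mmp3 was lost in 1, the model of 24 libraries (adjusted p = 0.0594). Of 874 alternative values of 45 named results, 734 kept their direction and side of the threshold, 100 lost and 32 gained a call and 8 changed direction. A further 7 values of DESeq2 had no adjusted p and were left out. Counts are given in the order of all 43 calls, the 10 higher and the 3 lower 24 h response genes. They were 219, 27 and 14 with no filter, 243, 25 and 15 with DESeq2's Wald test, 176, 22 and 12 with 24 libraries in one model, 1351 (774 higher, 577 lower), 49 and 24 with all 36, and 75, 18 and 8 with limma-voom and sample weights. Without replicates 1 and 3 of 6 h they were 166, 35 and 7, and without mitochondrial transcripts, Malat1 and Yam1 15, 6 and 1. The last 3 alternatives were chosen after seeing the data. The 3 lower genes were 5 with DESeq2's size factors and 1 with a list of at least 2-fold. With 1 library left out the counts ranged from 27 to 107, from 5 to 11 and from 0 to 6. The causes were not tested.

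The replicate numbers did not pair the libraries (correlations of deviations from −0.0302 to 0.0315). With the numbers as a block the counts were 75, 17 and 6, and 41 of the 43 calls were kept. The median log2 change of all genes was 0.197 with no filter, 0.385 with the block and 0.142 with limma-voom, against −0.03. Directions changed for Serpina3f (0.52 with the block, 0.058 with limma-voom, −1.42 to 0.43 with 1 library left out), Cxcl1 (0.22 with limma-voom, 0.037 without replicates 1 and 3 of 6 h, −0.47 to 0.012 with 1 library left out), Il6 (−0.15) and Ntsr1 (−0.35), the latter without replicates 1 and 3.

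The 93 calls in H-CM were 316 with no filter, 5 with 24 libraries, 18 with 36 and 258 with limma-voom, and 0 to 310 with 1 library left out. The 10 in unstimulated EGCs were 60, 26, 72 and 47 in that order, 92 with DESeq2 and 1 to 38 with 1 left out. The single interaction with H-CM became 101 with no filter, 35 with DESeq2, 0 with 24 libraries, 95 with 36, and 0 to 255 with 1 left out. The 7 with unstimulated EGCs became 66, 39, 75 with 36 libraries, 19 with limma-voom, and 4 to 18. Depth limits genes near the floor, since 3 counts are 2.87 CPM in the shallowest TME-CM library of 6 h, 110.5 CPM in that of H-CM and 15.8 CPM in that of unstimulated EGCs.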

Other observations

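Other programs gave no call between 6 h and 12 h in TME-CM EGCs. Of 14 genes of the amino acid response 10 had a positive log2 change (median 0.18, 3 higher and 1 lower at an unadjusted p under 0.05). Ddit3, Phgdh and Mthfd2 lay without overlap above 6 h, beside 6.94% of all genes tested. Ddit3, the stress factor CHOP, stood at 39.7, 36.3, 34.9 and 13.7 CPM at 6 h and at 69.4, 88.8, 97.8 and 75.6 CPM at 12 h (log2 change 1.37, edgeR adjusted p = 0.248). Mthfd2, a mitochondrial enzyme of folate metabolism, stood at 48.1, 61.1, 15.6 and 48.5 CPM and then at 105, 103, 105 and 99.7 CPM (log2 change 1.22, edgeR adjusted p = 0.293). Of 10 chaperones of the endoplasmic reticulum 9 were positive, with a median of 0.29 (0 calls, 0 also at an unadjusted p under 0.05). Glycolysis and hypoxia genes had a median of −0.06 over 21 (6 higher and 2 lower at an unadjusted p under 0.05). Beside 6.94% of all genes tested, 5 of the 21 were higher without overlap. Among them Slc16a3, the lactate exporter, stood at 2.1, 22, 21.8 and 4.65 CPM and then at 77.2, 84.4, 68.4 and 77.9 CPM, 4 libraries close together after 4 that were not (log2 change 2.60, edgeR adjusted p = 0.168), and Aldoa, a glycolytic aldolase, at 463, 521, 383 and 205 CPM and then 984, 1100, 681 and 1030 CPM (edgeR adjusted p = 0.0994).

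The lists of sterol and fatty acid synthesis (median 0.13 over 24 genes), S phase (0.47 over 16), G2/M phase (0.04 over 14), metallothioneins and NRF2 targets (−0.29 over 9), collagens and matrix (−0.06 over 14), TGF-beta and BMP targets (0.40 over 12) and the circadian clock (0.36 over 14) had 0 calls in edgeR. Together they held 4 genes higher and 7 lower at an unadjusted p under 0.05. Id2, an inhibitor of differentiation, stood at 391, 446, 379 and 407 CPM and then at 665, 603, 595 and 684 CPM, without overlap (log2 change 0.61, edgeR adjusted p = 0.315).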
